A study of Mus musculus with 4 samples.

Results

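The genes described here encode 6 enzymes that supply cells with NADPH: *G6pdx*, *Pgd*, *Taldo1* and *Tkt* of the pentose phosphate pathway, and *Me1* and *Idh1*, which work outside it. They are a list of named genes, and all 6 were found once each among the 27998 genes of the 4 count matrices. Magnetic beads against CD45, a surface protein of leukocytes, had been used to enrich cells of the tibialis anterior (a shin muscle) of male C57BL/6 mice aged 8 to 12 weeks. The muscle had been injured with cardiotoxin, a venom component that destroys muscle fibres, and was taken 2 or 4 days later (dpi2 and dpi4). Control mice were Bach1 fl/fl littermates without Cre, and KO mice were Bach1 fl/fl with a Cre gene under control of the *Lyz2* promoter, a myeloid promoter. All 4 groups therefore carried the floxed *Bach1* gene and all were injured, so that no uninjured muscle and no Cre-only mouse was part of the comparison. Each group was 1 library of 3′ RNA tags from single cells caught in droplets, so that n was 1 per group for this assay, and neither the labels nor the study's methods say whether that 1 was a single mouse or a pool.

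NADPH is the reduced cofactor that drives reductive synthesis, keeps glutathione and thioredoxin reduced, and feeds the NADPH oxidase with which phagocytes make superoxide. The pentose phosphate pathway has an oxidative branch, in which glucose 6-phosphate is oxidized to ribulose 5-phosphate and NADP is reduced, and a non-oxidative branch, which moves sugar phosphates back towards glycolysis or towards ribose. Glucose 6-phosphate dehydrogenase (*G6pdx*) catalyses the first step of the oxidative branch and 6-phosphogluconate dehydrogenase (*Pgd*) the last. Transaldolase (*Taldo1*) and transketolase (*Tkt*) are the enzymes of the non-oxidative branch and do not make NADPH themselves. Cytosolic malic enzyme (*Me1*) reduces NADP while it turns malate into pyruvate, and cytosolic isocitrate dehydrogenase (*Idh1*) does so while it turns isocitrate into 2-oxoglutarate. BACH1 is a heme-binding repressor that pairs with small MAF proteins at antioxidant response elements, sites that are also bound by the activator NRF2, and *Hmox1*, which encodes heme oxygenase 1, is its best known target.

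The libraries held from 4177 to 6602 barcodes and from 57010520 to 80228489 UMIs, which are counts of distinct RNA molecules. After filtering, 5721 and 3684 cells remained at dpi2 in the control and the KO library, and 4173 and 3433 at dpi4. Pairs of libraries shared from 2 to 14 barcodes. Cells were grouped into leukocyte classes by fixed markers, and the UMIs of a gene were summed within class and library and divided by all UMIs of that sum (CPM, counts per 1000000 UMIs). *Hmox1* stood at 502 CPM over all barcodes of the control and 8190 CPM of the KO library at dpi2, and at 417 and 6326 CPM at dpi4, so that it was far higher in both KO libraries. *Bach1* itself was at 189 and 187 CPM at dpi2 and at 207 and 217 CPM at dpi4, but the loxP sites flank an inner exon, 3′ counting need not read that exon, and where the tags lie was not examined, so that this level is no check of the deletion. *Lyz2* stood at 9388 CPM in the control and 17.5 CPM in the KO library at dpi2, and at 15844 and 21.6 CPM at dpi4, so that loss of *Lyz2* transcript cannot be told apart from loss of *Bach1* in these pairs. With 1 library per group there is no replicate check. No test was run, and every interval below is a 95% interval for counting error only. A gene is said to have passed the size rule where the ratio of 2 libraries was at least 1.5-fold, its interval did not include 1 and there were 50 or more UMIs in the pair, and the words rose and fell are kept for those genes.

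By GENCODE's gene models for GRCm38 (mm10 is the same assembly), the 6 genes are protein-coding and lie on 6 chromosomes: *G6pdx* (ENSMUSG00000031400) at chrX:74409483-74429194, *Pgd* (ENSMUSG00000028961) at chr4:149149991-149166771, *Taldo1* (ENSMUSG00000025503) at chr7:141392199-141402968, *Tkt* (ENSMUSG00000021957) at chr14:30548359-30574720, *Me1* (ENSMUSG00000032418) at chr9:86581371-86695953 and *Idh1* (ENSMUSG00000025950) at chr1:65158616-65186500.

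The promoter sequences of the 6 genes are shown first because BACH1 acts at sites of known letters. RefSeq windows of 300 bases (250 before and 50 after each annotated start, GRCm38.p6) were found for all 6 genes, 9 windows in all, and were searched on both strands. The core of the antioxidant response element as bound by MAF pairs, TGANTCAGC, was in 1 of the 9 windows, that of *Me1*, and in 390 of 32851 windows of all genes (1.19%). The shorter TGANTCA overlaps that core, was found in the same *Me1* window only, and was in 7.81% of all windows. The loose form TGANNNNGC was found once in 1 window of each of the 6 genes and was in 41.3% of all windows, so that it does not set them apart. The last 90 bases before the start and the first 20 after it follow for the 4 genes with a match in the 60 bases before the start or across it, 5′ to 3′ on the strand of the gene, with the match in capitals.
Me1 (chr9:86695895-86696004, minus strand): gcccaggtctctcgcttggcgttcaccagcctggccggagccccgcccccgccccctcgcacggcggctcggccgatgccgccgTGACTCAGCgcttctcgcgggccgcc
G6pdx (chrX:74428861-74428970, minus strand): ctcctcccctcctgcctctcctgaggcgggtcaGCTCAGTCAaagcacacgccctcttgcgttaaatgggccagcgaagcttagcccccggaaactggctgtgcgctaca
Tkt (chr14:30549041-30549150, plus strand): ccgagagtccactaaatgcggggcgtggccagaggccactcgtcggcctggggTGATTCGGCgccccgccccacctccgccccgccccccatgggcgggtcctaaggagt
Idh1 (chr1:65186460-65186569, minus strand): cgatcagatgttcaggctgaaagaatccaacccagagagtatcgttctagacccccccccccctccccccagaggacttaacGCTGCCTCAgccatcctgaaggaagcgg
In *Me1* the match holds the full core and lies across the annotated start. In *G6pdx*, *Tkt* and *Idh1* the capitals mark the loose form only, in *G6pdx* and *Idh1* on the opposite strand. A match is a run of letters, and binding was not measured here.

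Across the leukocyte classes the 6 genes did not share 1 pattern. *Idh1* was highest in macrophages in all 4 libraries, and so was *Me1*, though on few UMIs. *Taldo1* was lower in macrophages than in dendritic cells in every library. Over the libraries with at least 50 cells of a class, *Idh1* had a median of 152 CPM in macrophages (4 libraries, 109 to 199), 78.0 CPM in monocytes (3 libraries, 66.8 to 107), 42.1 CPM in dendritic cells (4 libraries, 22.8 to 63.7), 20.2 CPM in neutrophils (3 libraries, 16.97 to 27.1) and 5.001 CPM in T or NK cells (3 libraries, 4.14 to 14.1). The ranges of neighbours in this order were apart, except those of dendritic cells and neutrophils. Left out for want of 50 cells were control monocytes (48) and KO neutrophils (36) at dpi4 and KO T or NK cells (36) at dpi2. Medians over 3 libraries therefore hold the genotypes in unequal shares, and their order need not hold within a library. Within the control library at dpi2, *Idh1* was 26.3 times as high in macrophages as in T or NK cells. Only 2 of those 103 T or NK cells held a UMI of it, so that this ratio is very imprecise. *Me1* was rare everywhere, with a median of 1.42 CPM in macrophages (0.720 to 2.38), 0.406 CPM in monocytes and 0.235 CPM in dendritic cells. No UMI of it was found in T or NK cells of any library, where 3 UMIs would have been from 3.75 to 16.3 CPM, so that levels as high as those of macrophages were not detectable there. Of neighbours in its order, macrophages and monocytes had ranges that did not overlap. In monocytes, 11 of 2530 control and 7 of 959 KO cells held a UMI of *Me1* at dpi2, and none of 66 KO cells at dpi4. Control neutrophils gave 1 UMI at dpi2 (0.653 CPM, 0.0165 to 3.64) and none at dpi4 (up to 9.99 CPM). These 2 intervals include the macrophage levels of the same libraries.

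*G6pdx* was highest in monocytes (median 66.2 CPM, 56.3 to 76.7) and macrophages (57.2 CPM, 46.8 to 77.1), whose ranges overlapped, and these lay above neutrophils (37.9 CPM, 27.4 to 39.0) and dendritic cells (36.4 CPM, 31.0 to 42.9). T or NK cells were lowest, at 17.6 CPM (12.4 to 22.5). *Pgd* had medians of 238 CPM in monocytes, 202 CPM in neutrophils and 195 CPM in macrophages with overlapping ranges, and was lower in dendritic cells (88.8 CPM) and T or NK cells (70.4 CPM), whose ranges overlapped with each other. Both genes of the oxidative branch were thus higher in monocytes and macrophages than in dendritic cells, by ranges that did not overlap. Library by library, among classes with at least 50 cells, *Pgd* was highest in neutrophils in the control at dpi2 and dpi4 (202 and 176 CPM). In the KO library it was highest in neutrophils at dpi2 (389 CPM) and in monocytes at dpi4 (282 CPM).

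*Taldo1* had medians of 670.5 CPM in monocytes (566 to 671), 504 CPM in neutrophils (428 to 1124) and 498 CPM in dendritic cells (406 to 667), all overlapping, and of 316 CPM in macrophages (287 to 379.9) and 184 CPM in T or NK cells (144 to 193). The last 3 classes in this order stood apart from each other. Library by library, *Taldo1* was highest in dendritic cells (667 CPM) in the control at dpi2 and in neutrophils (428 CPM) at dpi4. In the KO library it was highest in neutrophils at dpi2 (1124 CPM) and, among classes with at least 50 cells, in monocytes at dpi4 (670 CPM). *Tkt* was at 284 CPM in monocytes, 259 CPM in dendritic cells and 223 CPM in macrophages, with overlapping ranges, and at 154 CPM in neutrophils and 130.5 CPM in T or NK cells, which overlapped with each other and lay below macrophages. Within a library, the highest class for *Tkt* was from 1.38 to 2.87 times the lowest, against 7.58 to 39.8 times for *Idh1*. The 39.8 rests on KO T or NK cells at dpi4, where 4 of 132 cells held a UMI of *Idh1*, and is imprecise.

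**Figure D1:**
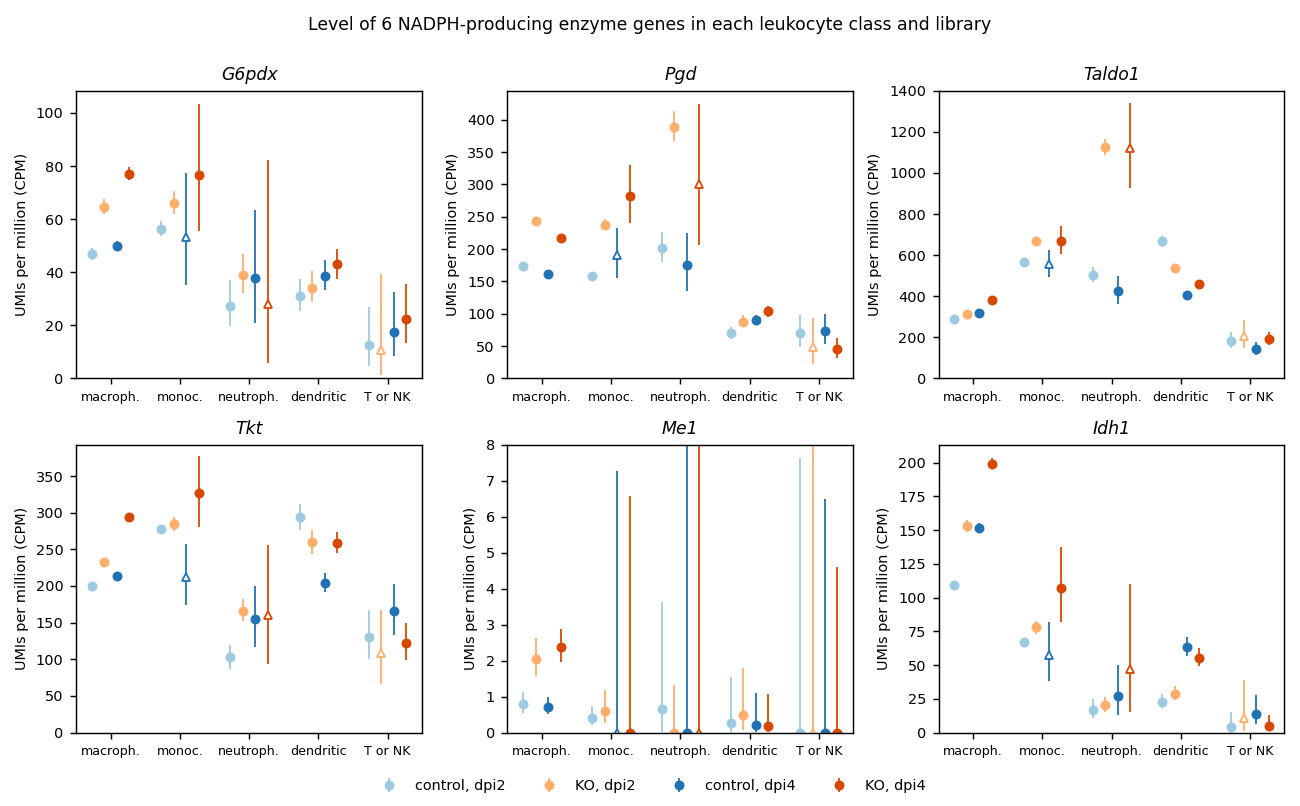
Level of each gene (vertical axis, CPM of the class, from 0) in 5 leukocyte classes (horizontal axis), 1 point per library with its 95% Poisson interval; open triangles mark classes with fewer than 50 cells in that library, and the *Me1* axis ends at 8 CPM, so that some intervals of shallow classes run past it. The KO points lie above the control points of the same day for all 6 genes in macrophages, and *Taldo1* in neutrophils goes from 504 to 1124 CPM at dpi2.

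In macrophages, all 6 genes were higher in the KO than in the control library at both time points. *Me1* rose at dpi2 and dpi4 and *G6pdx* rose at dpi4, while *Pgd*, *Idh1*, *Tkt* and *Taldo1* were higher by less than the size rule asks. The macrophage sums came from 2017 control and 1109 KO cells at dpi2 (38239297 and 30284739 UMIs) and from 2946 control and 2582 KO cells at dpi4. At dpi2, 1 of the 6 genes passed the rule upwards and none downwards, beside 5.18% of 11119 tested genes that passed upwards and 5.77% that passed downwards. At dpi4, 2 of 6 passed upwards and none downwards, beside 3.19% and 4.01% of 11928 genes. The median log2 ratio of the 6 genes was 0.47 at dpi2 and 0.44 at dpi4, against -0.02 and 0.01 over all tested genes.

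*G6pdx*, the entry enzyme of the oxidative branch, stood in macrophages at 46.8 CPM in the control and 64.7 CPM in the KO library at dpi2, and at 49.7 and 77.1 CPM at dpi4. Both KO values lay above both control values. KO over control was 1.38 (1.29 to 1.47) on the earlier day and 1.55 (1.48 to 1.63) on the later. The dpi4 ratio lies close to the threshold of 1.5 and fell short of it when mitochondrial and ribosomal protein genes were left out of the totals (log2 ratio 0.58) and at a coarser clustering (0.57). *Pgd* was at 174 and 243 CPM at dpi2 and at 162 and 217 CPM at dpi4, with ratios of 1.40 (1.35 to 1.44) and 1.34 (1.30 to 1.38). Both genes of the oxidative branch thus had KO values above either control value. *G6pd2*, a near copy of *G6pdx* on an autosome, had from 2 to 4 UMIs in the macrophages of each library. How many reads fitted both copies, and how they were counted, was not measured, so that *G6pdx* is uncertain by an unknown amount.

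Of the non-oxidative branch, *Tkt* was at 200.1 and 232 CPM at dpi2 and at 214 and 294 CPM at dpi4 in macrophages, with ratios of 1.16 (1.12 to 1.20) and 1.38 (1.34 to 1.41). *Taldo1* was at 287 and 315 CPM at dpi2 and at 317 and 379.9 CPM at dpi4, with ratios of 1.10 (1.07 to 1.13) and 1.20 (1.17 to 1.22). For *Taldo1* the KO value at dpi2 was below the control value at dpi4, so that the libraries of the genotypes overlapped when days were mixed. These 2 enzymes had the smallest ratios of the 6 genes at dpi2.

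Outside the pathway, *Idh1* was at 109 and 153 CPM at dpi2 and at 152 and 199 CPM at dpi4 in macrophages, with ratios of 1.40 (1.35 to 1.46) and 1.31 (1.27 to 1.35). The KO library at dpi2 stood level with the control library at dpi4. *Me1* had 30 UMIs in the control and 62 in the KO library at dpi2 (0.785 and 2.05 CPM) and 39 and 109 UMIs at dpi4 (0.720 and 2.38 CPM). It rose by 2.61-fold (1.66 to 4.18) at dpi2 and 3.30-fold (2.27 to 4.89) at dpi4, the largest ratios of the 6 genes, on the fewest UMIs. Neither pair reaches 200 UMIs, the stricter minimum tried, and the dpi4 log2 ratio of 1.72 was 0.94 as a mean of per-cell CPM. *Me1* is also the gene whose promoter window holds the full TGANTCAGC core shown above, and whether the core has a part in its ratios was not tested.

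The macrophages of the KO library at dpi2 were deeper than those of the control, with medians of 25981 and 17764 UMIs per cell, while at dpi4 the medians were 15341 and 16206. Summed markers of neutrophils in macrophages were at 92.9 and 236 CPM at dpi2 and at 90.2 and 67.3 CPM at dpi4, and those of muscle cells at 5.18, 4.92, 24.8 and 17.7 CPM. Markers of monocytes were lower in the KO library on both days (1184 and 915 CPM, then 424 and 350 CPM), as were those of T or NK cells (220 and 129 CPM, then 145 and 143 CPM), and those of plasmacytoid dendritic cells were at 839 and 489 CPM and at 569 and 633 CPM. The part of depth and of such transcripts in the ratios was not tested. With every macrophage thinned to 2000 UMIs, *G6pdx* was found in 8.92% of control and 12.95% of KO cells at dpi2 (Clopper-Pearson intervals 7.69% to 10.3% and 11.01% to 15.1%) and in 9.64% and 12.6% at dpi4 (8.58% to 10.8% and 11.3% to 13.97%). *Idh1* was found in 19.2% and 24.1% of thinned macrophages at dpi2 and in 25.3% and 31.4% at dpi4, and *Pgd* in 30.3% and 38.0%, and 25.7% and 31.7%. For these 3 genes the intervals of control and KO, which are over cells of 1 library each, did not overlap on either day. They overlapped for *Taldo1* (43.1% and 43.9%) and *Tkt* (34.0% and 37.2%) at dpi2, and not at dpi4 (42.6% and 48.5%, 32.2% and 41.7%). With cells thinned to 1000 UMIs, the intervals also overlapped for *G6pdx* at dpi2 (5.01% and 7.08%) and for *Idh1* at dpi2 (10.6% and 13.8%) and dpi4 (14.8% and 16.8%). Cells below 2000 UMIs, 28 to 82 per library, were not used, and unthinned the *G6pdx* shares were 50.8%, 67.3%, 48.6% and 59.7% in the order control and KO at dpi2, control and KO at dpi4. In thinned T or NK cells the *Idh1* share was from 0% to 2.34%.

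**Figure D2:**
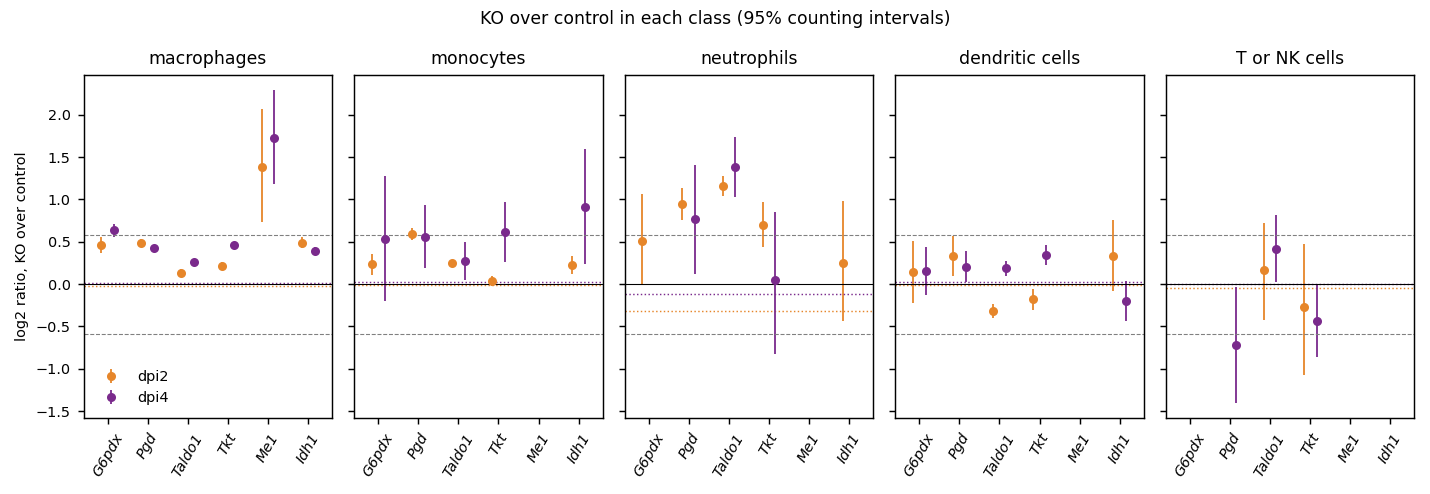
Log2 ratio of CPM, KO over control (vertical axis), for each gene (horizontal axis) in 5 leukocyte classes at dpi2 and dpi4, with 95% counting intervals, for pairs with at least 50 UMIs; dashed lines mark a ratio of 1.5 in either direction and dotted lines the median of all tested genes. The 12 macrophage values all lie above 0, with *Me1* at 1.38 and 1.72, and the neutrophil values of *Taldo1* at 1.16 and 1.39.

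Macrophages are a mixture of states, and the mixture differed between the genotypes. At dpi2, 1159 of the 2017 control macrophages were in a cluster led by *Hmga2*, *Htr2b* and *Pdpn*, against 190 of 1109 KO macrophages, and a cluster led by *Lyve1*, *Cd163* and *Gja1* held 552 control and 360 KO cells. At dpi4, a cluster led by *Sepp1*, *Gpr34* and *Apoe* held 1153 control and 338 KO cells, and one led by *Slc40a1*, *Vcam1* and *Il18bp* held 247 and 944. Ratios were therefore also taken inside clusters, and of those with at least 50 cells of both genotypes, 2 of 3 are described at dpi2 and all 7 at dpi4.

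At dpi2, *G6pdx*, *Pgd*, *Tkt* and *Idh1* had ratios above 1 in both the *Lyve1* and the *Hmga2* cluster, and *Taldo1* had ratios below 1 in both. In the *Lyve1* cluster *G6pdx* rose 1.62-fold (1.43 to 1.84), *Pgd* 1.55-fold (1.45 to 1.67) and *Idh1* 1.70-fold (1.53 to 1.88). In the *Hmga2* cluster the same genes had ratios of 1.151, 1.06 and 1.14. For *Taldo1* the ratios were 0.987 (0.930 to 1.05) in the *Lyve1* cluster, at 244 CPM in the control and 241 CPM in the KO library, and 0.9798 (0.926 to 1.04) in the *Hmga2* cluster, at 298 and 292 CPM, against 1.10 over the whole class. The class ratio of *Taldo1* at dpi2 was thus not found inside either of these clusters.

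At dpi4, *Tkt* and *Idh1* had ratios above 1 in all 7 clusters and *G6pdx*, *Pgd* and *Taldo1* in 6 of 7. *G6pdx* rose in 4 of the 7, by 1.59-fold to 1.70-fold, among them the cluster of cycling cells led by *Birc5* and *Top2a*, where it went from 55.6 to 88.1 CPM. *Tkt* rose 1.61-fold (1.49 to 1.75) in the *Slc40a1* and *Vcam1* cluster. The cluster with ratios below 1 for *G6pdx*, *Pgd* and *Taldo1* was the *Hmga2* cluster, which held 59 control and 62 KO cells at dpi4 and gave 0.977 (0.696 to 1.38) for *G6pdx*. *Me1* had at most 45 UMIs in any of these pairs. Its ratios were above 1 in 6 of the 7 clusters, the lowest being 0.712 (on 2 UMIs) and the highest 5.80. In the cluster led by *Mmp12*, *Mfge8* and *Ctsk* it was at 0.639 CPM in the control and 3.71 CPM in the KO library (5.80, 2.66 to 14.4), below the 50 UMIs that the size rule asks.

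**Figure D3:**
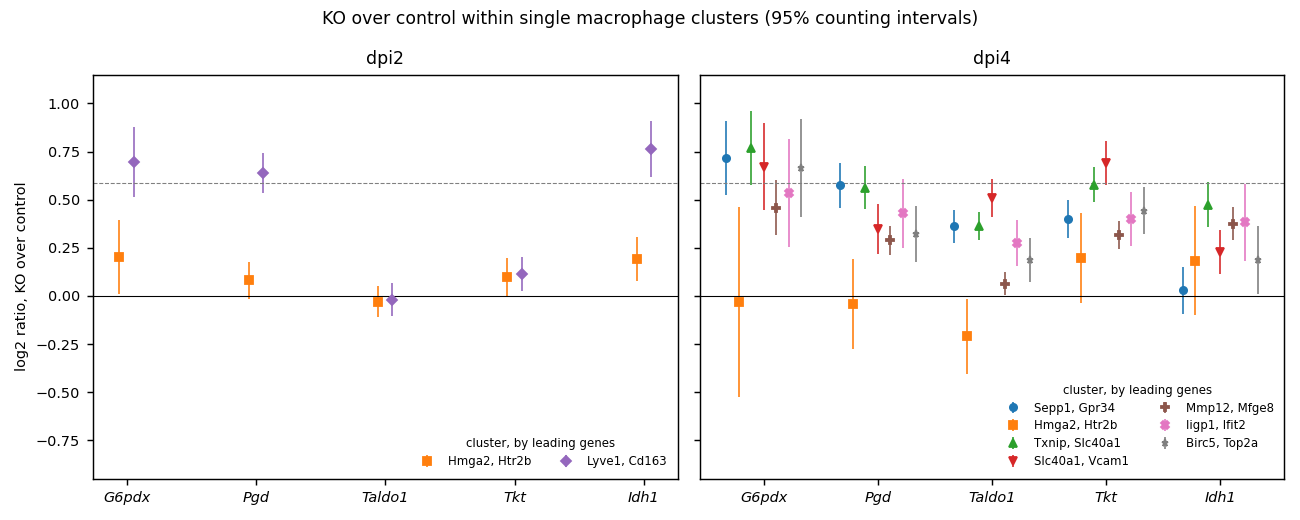
Log2 ratio of CPM, KO over control (vertical axis), of 5 genes (horizontal axis) inside single macrophage clusters with at least 50 cells of both genotypes, at dpi2 (left, 2 of the 3 such clusters) and dpi4 (right), with 95% counting intervals; the dashed line marks a ratio of 1.5 and *Me1* is left out because no pair reached 50 UMIs. At dpi2 the *Lyve1* cluster lies above the *Hmga2* cluster for *G6pdx*, *Pgd* and *Idh1*, and at dpi4 the *Hmga2* cluster lies lowest for *G6pdx*, *Pgd*, *Taldo1* and *Tkt*.

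The other genes of NADPH metabolism in macrophages were taken from fixed lists. Of the 4 genes of the oxidative branch, 3 had ratios above 1 on each day, and *Pgls*, which encodes the lactonase between the 2 dehydrogenases, stood at 0.898 at dpi2 and 0.848 at dpi4. *H6pd*, the dehydrogenase of the endoplasmic reticulum, rose 1.63-fold (1.49 to 1.79) at dpi2, from 21.3 to 34.9 CPM, and had a ratio of 1.22 at dpi4. Of the 5 genes of the non-oxidative branch none passed the rule on either day, with ratios for the epimerase *Rpe* of 0.981 and 1.38 and for the isomerase *Rpia* of 1.14 and 1.12. Of the 12 other NADPH sources, 9 had enough UMIs at dpi2 and 10 at dpi4, and besides *Me1* only *Aldh1l1*, a folate enzyme that reduces NADP, passed, at dpi4 (60 and 96 UMIs, 1.89-fold). The mitochondrial counterparts *Me2* and *Idh2* had ratios of 0.9499 and 1.07 at dpi2 and of 1.16 and 0.931 at dpi4. The mitochondrial folate dehydrogenase *Mthfd2* was at 0.805 and 1.04. The median log2 ratio of this list was 0.11 and 0.12.

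Among the partners, the citrate carrier *Slc25a1*, which exports the citrate that cytosolic aconitase and IDH1 can use, had ratios of 1.45 (1.35 to 1.57) and 1.48 (1.40 to 1.57), just short of the rule, and *Aco1*, the cytosolic aconitase, had 1.20 and 1.29. Malate dehydrogenase *Mdh1*, which can supply malate to malic enzyme, was at 0.884 and 0.982. The NAD kinases *Nadk* and *Nadk2*, which make NADP, had ratios from 0.951 to 1.13, and the ribose 5-phosphate users *Prps1* and *Prps2* from 0.731 to 1.30. No gene of these 3 lists passed the rule in macrophages.

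Of the 10 genes that use NADPH, 4 rose in macrophages on each day and none fell. Of all tested genes, 5.18% and 3.19% passed upwards at dpi2 and dpi4, and 5.77% and 4.01% passed downwards. *Hmox1*, the best known BACH1 target and already shown to be far higher in the KO libraries, is among the 4 on each day. The list was chosen with earlier results of these data known, so that its count is a description only. Glutathione reductase *Gsr* went from 27.7 to 95.03 CPM at dpi2 (3.43-fold, 3.19 to 3.68) and from 32.9 to 56.2 CPM at dpi4 (1.71-fold). Thioredoxin reductase *Txnrd1* went from 109 to 207 CPM at dpi2 (1.90-fold) and from 99.6 to 162 CPM at dpi4 (1.63-fold). *Por*, the reductase that passes electrons to heme oxygenase and to cytochromes P450, rose 2.75-fold at dpi4 (83.8 to 231 CPM) and had a ratio of 1.37 at dpi2. *Hmox1* rose 15.5-fold and 14.7-fold. *Nqo1*, a quinone reductase, passed the rule at dpi2 on 42 and 53 UMIs and was at 0.763 at dpi4. *Cybb*, the catalytic subunit of the phagocyte NADPH oxidase, had ratios of 0.862 and 0.820, and *Blvrb*, a reductase of the heme degradation route, had 1.32 and 1.25. *Fasn*, the fatty acid synthase, had a ratio of 1.34 on each day.

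**Figure D4:**
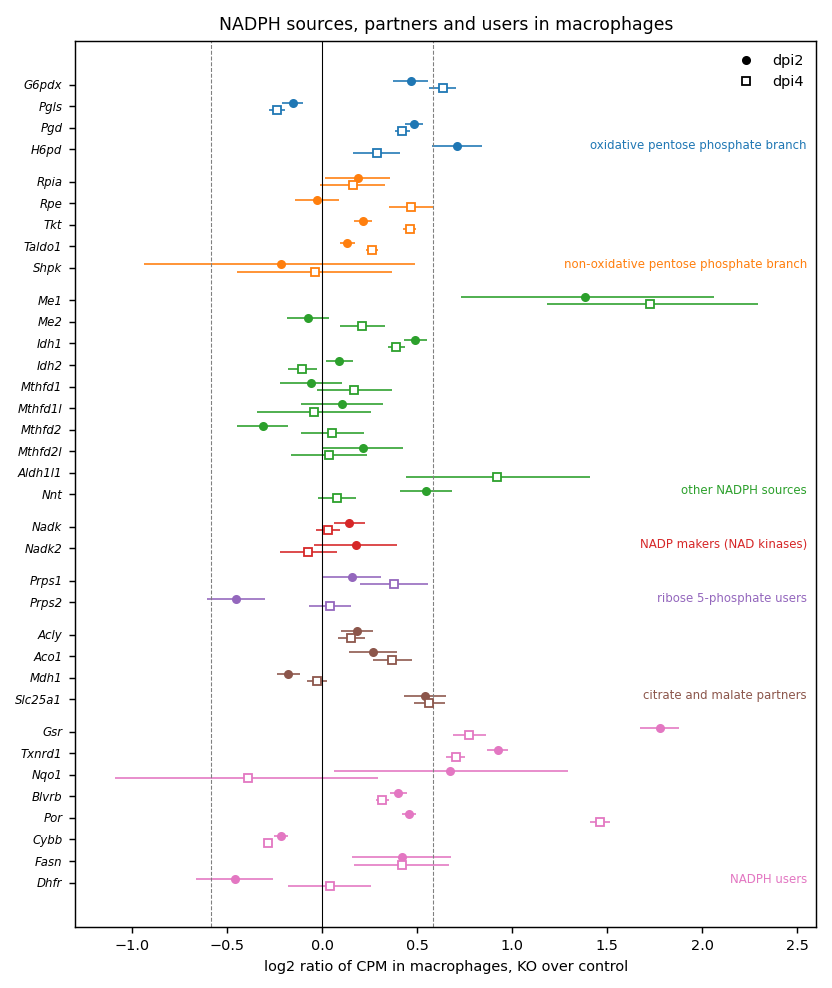
Log2 ratio of CPM in macrophages, KO over control (horizontal axis), of genes of the fixed lists with at least 50 UMIs in the pair (vertical axis), filled circles for dpi2 and open squares for dpi4, with 95% counting intervals; dashed lines mark a ratio of 1.5 in either direction, and *Hmox1* lies beyond the axis and is not drawn. *Me1*, *Gsr*, *Txnrd1* and *Por* at dpi4 stand to the right of the upper line, and *Pgls* and *Cybb* lie left of 0 on both days.

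In monocytes at dpi2, with 2530 control and 959 KO cells, *Pgd* rose and the other 4 genes with at least 50 UMIs had ratios between 1.03 and 1.19. *Pgd* went from 158 to 238 CPM, a ratio of 1.51 (1.44 to 1.58) that lies at the threshold, and it fell short of it with no doublets removed (log2 ratio 0.58) and at a finer clustering (0.58). *Taldo1* was at 566 and 671 CPM (1.19), *G6pdx* at 56.3 and 66.2 CPM (1.18), *Idh1* at 66.8 and 78.0 CPM (1.17) and *Tkt* at 277 and 284 CPM (1.03, 0.987 to 1.07). *Me1* had 11 and 8 UMIs. So 1 of 5 genes passed upwards and none downwards, beside 5.01% and 6.69% of 9995 tested genes. In this class summed neutrophil markers were at 205 CPM in the control and 412 CPM in the KO library, monocyte markers at 9811 and 7576 CPM and macrophage markers at 4072 and 4503 CPM, and their part in the *Pgd* ratio was not tested. Inside the monocyte cluster led by *Plac8* and *Ifitm6* (1448 control and 245 KO cells), *Pgd* rose 1.55-fold, from 149 to 231 CPM, and the ratios of *Taldo1* (1.33, 1.27 to 1.39), *Idh1* (1.26, 1.10 to 1.44), *G6pdx* (1.19, 1.02 to 1.38) and *Tkt* (1.09, 1.01 to 1.17) were above 1 with intervals that leave out 1. Inside the cluster led by *F10* and *Thbs1* (666 and 246 cells), *Pgd* had a ratio of 1.27 (1.17 to 1.38), while *G6pdx* (1.01, 0.848 to 1.19), *Taldo1* (0.977, 0.927 to 1.03) and *Idh1* (0.942, 0.803 to 1.10) had intervals that include 1 and *Tkt* was at 0.910 (0.840 to 0.986). The ratios of the genes other than *Pgd* thus had intervals that leave out 1 on the upper side in the *Plac8* cluster and not in the *F10* cluster. The remaining clusters were mostly of 1 genotype. A cluster led by *Vcan* and *Dmkn* held 428 of the KO monocytes and 47 of the control monocytes, and one led by *Cxcl10*, *Ifit1bl1* and *Rsad2* held 369 control and 40 KO cells. In the control cells of the *Cxcl10* cluster *G6pdx* was at 38.7 CPM, *Pgd* at 131 CPM, *Taldo1* at 413 CPM and *Idh1* at 49.9 CPM, below the control cells of the *Plac8* and *F10* clusters for these 4 genes. The part of this unequal mixture in the class ratios was not tested.

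At dpi4 monocytes were few, 48 in the control and 66 in the KO library. All 5 genes with at least 50 UMIs had ratios above 1, and 2 rose, *Idh1* 1.87-fold (29 and 60 UMIs, 1.18 to 3.03) and *Tkt* 1.53-fold (108 and 183 UMIs, 1.20 to 1.96), beside 5.86% of 3262 tested genes that passed upwards and 5.24% downwards. *Pgd* had a ratio of 1.47, *G6pdx* of 1.44 and *Taldo1* of 1.21. The intervals were 1.14 to 1.92 for *Pgd*, 0.870 to 2.43 for *G6pdx* and 1.03 to 1.41 for *Taldo1*, and the control side lies under 50 cells. *Tkt* no longer passed at a coarser or finer clustering (log2 ratios 0.57 and 0.56), with no doublets removed (0.58) or under separate clustering of the libraries (0.40), and *Idh1* no longer passed in the last of these (0.46). *Pgd*, at 0.56, did pass at the coarser clustering (0.91), with no doublets removed (0.66), under separate clustering (0.87) and as a mean of per-cell CPM (0.72), and *G6pdx*, at 0.53, did with the looser gene filter (0.78). Summed macrophage markers in these cells were at 13786 CPM in the control and 9813 CPM in the KO library, monocyte markers at 5729 and 7907 CPM and neutrophil markers at 126 and 55.3 CPM, and their part in the ratios was not tested.

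In neutrophils at dpi2, *Taldo1*, *Pgd* and *Tkt* rose, and no gene of the 6 fell. *Taldo1* rose from 504 CPM in the control (629 cells, 773 UMIs) to 1124 CPM in the KO library (783 cells, 3170 UMIs), a ratio of 2.23 (2.06 to 2.41). *Pgd* rose from 202 to 389 CPM (1.92, 1.69 to 2.19) and *Tkt* from 102 to 166 CPM (1.62, 1.35 to 1.96). *G6pdx* was at 27.4 and 39.0 CPM (1.42, 0.989 to 2.08) and *Idh1* at 16.97 and 20.2 CPM (1.19, 0.737 to 1.97), with intervals that include 1. *Me1* had 1 UMI in the control and none in the KO library. So 3 of 5 genes passed upwards and none downwards, beside 4.83% and 22.7% of 5720 tested genes. More genes passed downwards than upwards in this pair, and the median log2 ratio of all tested genes was -0.31 against 0.70 for the 5 genes. Scaling by TMM factors in place of totals added 0.32 to every log2 ratio and took *Taldo1* to 1.47. *G6pdx* then passed as well, at 0.82 in place of 0.51 (ratio interval 1.23 to 2.59), as it did with a mean of per-cell CPM (0.64).

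The summed neutrophil markers were also higher in KO neutrophils at dpi2, at 74331 against 51157 CPM, while markers of monocytes were at 1533 against 2314 CPM and those of macrophages at 641 against 690 CPM, and the part of this in the ratios was not tested. The median depth was 3420 UMIs per KO and 2308 per control neutrophil. With cells thinned to 2000 UMIs, *Taldo1* was found in 49.0% of control neutrophils (44.4% to 53.7%) and 83.1% of KO neutrophils (80.1% to 85.7%), and *Pgd* in 30.02% and 50% of them. Shallower cells were not used, 166 of 629 in the control and 51 of 783 in the KO library, so that the selection was unequal. At 1000 UMIs, which left out 7 and 1 cells, the *Taldo1* shares were 35.0% and 60.5%. A shallow cluster led by *Il1f9*, *Mirt1* and *Pdcd1lg2*, closest to neutrophils by its markers but left unnamed, held 91 control and 528 KO cells at dpi2. Inside it *Pgd* rose 3.66-fold (122 to 445.5 CPM), *Tkt* 1.89-fold and *Taldo1* 1.53-fold (813 to 1246 CPM). Counted with the neutrophils, it left the same 3 genes past the rule. Among the other genes of the lists, *Gsr* (1.58-fold), *Txnrd1* (3.26-fold), *Por* (5.16-fold) and *Hmox1* (49.4-fold) rose in neutrophils at dpi2, while *Pgls*, *Rpe*, *Rpia*, *Idh2*, *Nadk2*, *Mdh1* and *Cybb* fell, to ratios between 0.359 and 0.591. With the TMM shift added, *Rpia* and *Idh2* would lie inside the rule. Of all 5720 tested genes, 4.83% passed upwards and 22.7% downwards in this pair. By list, 1 of 4 tested genes fell in the oxidative branch, 2 of 4 in the non-oxidative branch and 1 of 3 among other NADPH sources. So did 1 of 2 NAD kinases, 1 of 2 citrate and malate partners and 1 of 7 NADPH users, while 4 of those 7 rose.

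At dpi4 neutrophils were few, 129 in the control and 36 in the KO library, and only 3 genes had 50 UMIs. *Taldo1* rose from 428 to 1119 CPM (158 and 119 UMIs, 2.62-fold, 2.05 to 3.34) and *Pgd* from 176 to 301 CPM (65 and 32 UMIs, 1.71-fold, 1.08 to 2.65), while *Tkt* was at 154 and 159.9 CPM (1.04). So 2 of 3 passed upwards and none downwards, beside 4.87% and 8.32% of 1623 tested genes. *Taldo1* was thus at 1124 and 1119 CPM in KO neutrophils on the 2 days and at 504 and 428 CPM in control neutrophils. The TMM shift here was 0.13. With the shallow cluster counted in, 1 gene passed, *Taldo1*, and the log2 ratio of *Pgd* was 0.61 against 0.77 without it.

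In dendritic cells no gene of the 6 passed the rule between the genotypes. At dpi2 (305 control and 235 KO cells), *Taldo1* was at 667 and 536 CPM (0.802, 0.757 to 0.851) and *Tkt* at 294 and 259.8 CPM (0.884), both lower in the KO library, while *Pgd* (69.7 and 87.8 CPM, 1.26), *Idh1* (22.8 and 28.8 CPM, 1.26) and *G6pdx* (31.0 and 34.2 CPM, 1.10) were higher. Of all 8001 tested genes, 4.72% passed upwards and 4.77% downwards. At dpi4 (392 and 430 cells), *Tkt* (204 and 259 CPM, 1.27), *Pgd* (89.9 and 104 CPM, 1.153), *Taldo1* (406 and 461 CPM, 1.14) and *G6pdx* (38.7 and 42.9 CPM, 1.11) were higher and *Idh1* (63.7 and 55.5 CPM, 0.872) was lower, beside 2.45% and 2.06% of 8840 genes past the rule. *Taldo1* and *Tkt* thus had ratios on opposite sides of 1 at dpi2 and dpi4. Under separate clustering of the libraries, which left 49 control and 20 KO cells at dpi2 and 375 and 336 at dpi4, *Taldo1* (log2 ratio -1.90) and *Tkt* (-0.69) passed the rule downwards at dpi2, and at dpi4 *Pgd* (-0.71, turned from 0.21) and *Idh1* (-1.05) did, while *G6pdx* turned from 0.15 to -0.30 and *Tkt* from 0.34 to -0.04. Markers of other classes in these cells also moved between the genotypes. Macrophage markers were at 901 CPM in the control and 1394 CPM in the KO library at dpi2 and at 6562 and 4095 CPM at dpi4, so that they too were on opposite sides on the 2 days. Monocyte markers were at 3024 and 2027 CPM and at 1386 and 1484 CPM, neutrophil markers at 124 and 321 CPM and at 105 and 17.6 CPM, and the part of such transcripts in the ratios was not tested. *Hmox1* rose 17.9-fold in this class at dpi2, from 38.4 to 687 CPM. *Me1* had 1 or 2 UMIs in each library.

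T or NK cells are not known to use the *Lyz2* promoter. At dpi2 (103 control and 36 KO cells), *Taldo1* (184 and 206 CPM) and *Tkt* (130.5 and 108 CPM) had ratios of 1.12 and 0.831 with intervals that include 1, and of 2085 tested genes 4.75% passed upwards and 6.33% downwards. At dpi4 (80 and 132 cells), *Pgd* fell from 74.0 to 45.0 CPM (42 and 36 UMIs, 0.609, 0.379 to 0.973), *Taldo1* was at 144 and 193 CPM (1.33) and *Tkt* at 166 and 123 CPM (0.740). So 1 of 3 genes passed downwards and none upwards, beside 5.61% and 3.87% of 3851 tested genes. *Pgd*, at a log2 ratio of -0.72, no longer passed with no doublets removed (-0.37) or with the looser mitochondrial or gene filter (-0.51 and -0.52). *Lyz2*, a myeloid transcript, stood at 876 and 1706 CPM in control T or NK cells, and *Hmox1* at 12.4 and 239 CPM in control and KO at dpi2 and at 29.9 and 244 CPM at dpi4. Summed macrophage markers in this class were at 2187 CPM in the control and 1091 CPM in the KO library at dpi4, so that they were lower where *Pgd* was lower, and T or NK markers were at 4657 and 6612 CPM. The part of myeloid transcripts in the *Pgd* ratio and in the values of other classes was not tested.

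Between the days, macrophages kept levels of the 6 genes within the rule in both genotypes. Of the 6, *Idh1* had the largest ratio of dpi4 over dpi2, 1.39 (1.34 to 1.44) for control and 1.30 (1.25 to 1.35) for KO macrophages, and *Pgd* the lowest among genes with over 200 UMIs, 0.928 and 0.890. The count past the rule was 0 of 6 in both, beside 17.3% of 11721 tested genes upwards and 17.7% downwards in the control, and 17.1% and 15.3% of 11446 genes in the KO libraries. These ratios share their libraries with the genotype ratios above. The mixture differed between the days: the *Hmga2* cluster held 1159 control cells at dpi2 and 59 at dpi4, the *Sepp1* cluster 10 and 1153. Summed macrophage markers were at 11815 and 39340 CPM in the control and at 13173 and 32668 CPM in the KO libraries. Monocyte markers were at 1184 and 424 CPM and at 915 and 350 CPM. The part of this in the ratios was not tested. Of *Me1*, 0.785 and 0.720 CPM in the control and 2.05 and 2.38 CPM in the KO libraries were measured at dpi2 and dpi4.

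In dendritic cells *Idh1* rose from 22.8 to 63.7 CPM between dpi2 and dpi4 in the control (2.79-fold, 2.19 to 3.60) and from 28.8 to 55.5 CPM in the KO libraries (1.93-fold, 1.55 to 2.42), while *Taldo1* fell in the control, from 667 to 406 CPM (0.608, 0.573 to 0.644), and had a ratio of 0.861 in the KO libraries. So 1 of 5 genes passed upwards and 1 downwards in the control, beside 11.3% and 10.3% of 8420 genes, and 1 of 5 upwards and none downwards in the KO libraries, beside 11.5% and 7.93% of 8572 genes. *Tkt* was at 294 and 204 CPM in the control (0.695) and at 259.8 and 259 CPM in the KO libraries (0.997). Summed macrophage markers in the dendritic cell class were at 901 CPM at dpi2 and 6562 CPM at dpi4 in the control and at 1394 and 4095 CPM in the KO libraries, so that they moved with *Idh1*, and their part in it was not tested. The log2 ratio of *Idh1* in the control, 1.48, lay between 0.46 and 1.53 over the alternative settings and was short of the rule at its lowest, under separate clustering of the libraries. That in the KO libraries, 0.95, lay between -1.40 and 1.03. It turned to -1.40 under the same separate clustering, and was short of the rule with the looser mitochondrial or gene filter (0.24 and 0.37) and at a finer clustering (0.39). *Pgd* in the KO libraries turned from 0.24 to -0.69 and -0.61 with the looser mitochondrial and gene filters, past the rule downwards. In the control, *Tkt* at -0.52 passed the rule downwards with either of these filters (-0.67 and -0.74), with no doublets removed (-0.62) and at the finer clustering (-0.74). Under separate clustering *G6pdx* (1.62) and *Pgd* (1.10) passed upwards in the control and *Taldo1* (0.92, turned from -0.22) in the KO libraries.

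In T or NK cells none of the 3 genes with 50 UMIs in the control pair and none of the 2 in the KO pair passed the rule between the days. Of all genes, 6.18% of 3173 passed upwards and 7.75% downwards in the control, and 6.36% of 2907 upwards and 5.81% downwards in the KO libraries. *Taldo1* was at 184 and 144 CPM in the control and 206 and 193 CPM in the KO libraries.

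The genes whose level followed each of the 6 most closely were taken over 17 sums of 1 class in 1 library with at least 50 cells, among 5711 genes, as Pearson's r of log2(CPM + 1). These sums share libraries, and r is given as a description. *Idh1* was followed most closely by *Itgb5* (0.98), *Lamp1* (0.97) and *Cebpa* (0.97), *G6pdx* by *Aldh2* (0.95), *Slc8b1* (0.94) and *Tnfrsf21* (0.93), and *Pgd* by *Cd300lb* (0.95), *Tlr4* (0.94) and *Pla2g7* (0.94). *Taldo1* was followed by *Notch2* (0.96), *Il13ra1* (0.91) and *Gpr35* (0.91), *Tkt* by *Tmem51* (0.91), *Zfp385a* (0.89) and *Rilpl2* (0.89), and *Me1* by *Man1c1* (0.87), *Pja2* (0.84) and *Spp1* (0.83). Among the 6 genes themselves, *G6pdx* and *Idh1* were the most alike (0.91) and *Taldo1* and *Me1* the least (-0.00125). *G6pdx* had 0.70 with *Pgd* and 0.73 with *Tkt*, and *Pgd* and *Tkt* had 0.25 with each other.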

How the data were processed

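The values are whole-number UMI counts per gene and cell barcode, deposited by the authors without normalization as Cell Ranger 6.1.2 wrote them for the mm10 genome, per the labels. The labels and the study's methods name different versions of the 3′ kit, and the annotation version is not given in the sources used here. Depth was from 57010520 to 80228489 UMIs per library. Barcodes with under 10% mitochondrial UMIs and at least 500 genes were kept, and the highest Scrublet scores were removed as doublets at 0.8% per 1000 cells. Without integration, 2000 variable genes without the listed genes, 30 principal components and a graph of 15 neighbours were clustered by Leiden at resolution 1 (scanpy 1.11.5, leidenalg 0.10.2). The 27 clusters were named from 77 fixed markers, not from an annotation by the authors, and 3 stayed unnamed, 2 as shallow without own markers among their leading genes and 1 led by markers of another class. Depth limits precision as the intervals show.

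CPM has an exact Poisson interval, a ratio the exact conditional binomial interval and a share of cells the Clopper-Pearson interval, all at 95%. With 1 library per group no test was run. Genes were named by a rule: the 6 genes, the 38 other genes of the fixed lists and the 3 genes most like each. 1 macrophage cluster and 1 listed gene are not reported here by name or value. The members, lists and markers were chosen with earlier results of these data known. Alternatives changed the scaling (TMM, edgeR), the rule, the filters, the doublets and the clustering, and 2 were added after the data were seen.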

Additional observations from a re-analysis of the deposited data

Results flagged for a closer look

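In dendritic cells, 2 genes of the non-oxidative branch had KO over control ratios in opposite directions on the 2 days. *Taldo1* had a log2 ratio of -0.32 at dpi2 and 0.18 at dpi4, a difference of 0.50, and *Tkt* had -0.18 and 0.34, a difference of 0.52. With 1 library per genotype and day the difference was not tested, and neither gene passed the size rule on either day. Summed macrophage markers in this class were at 901 and 1394 CPM in control and KO at dpi2 and at 6562 and 4095 CPM at dpi4, and monocyte markers at 3024 and 2027 CPM and at 1386 and 1484 CPM. Their part in the turn was not tested. Separate clustering of the libraries gave log2 ratios of -1.90 for *Taldo1* and -0.69 for *Tkt* at dpi2, on 49 control and 20 KO cells and both past the size rule, and 0.22 and -0.04 at dpi4.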

How the results depend on the processing

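With 1 library per group, no replicate could be left out and no test was run. An additive fit of genotype and day over the 4 libraries, which would leave 1 residual degree of freedom, was not run. Over 14 alternatives, 747 of 858 recomputed ratios of the 6 genes stayed inside the counting interval of the reported value, 110 left it, and 1 that had passed the size rule changed direction. Ratios short of the rule were less stable in sign, and 24 of the 72 ratios, the one just named included, changed sign in at least 1 alternative. Of 240 recomputed shares of cells, 178 left the interval of the reported share, 93 of them at 1000 UMIs and 85 unthinned. In macrophages all 6 genes kept KO over control ratios above 1 on both days in every alternative, the lowest log2 ratio being 0.08 for *Taldo1* at dpi2 with monocytes and macrophages pooled. *Idh1* in dendritic cells, dpi4 over dpi2 in the KO libraries, had a log2 ratio of 0.95 and of -1.40 when each library was clustered by itself, which left 49 control and 20 KO dendritic cells at dpi2.

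Single genes gained the call 29 times over these alternatives, lost it 35 times and turned from one direction to the other once, so that an equal count need not be the same genes. The number of genes past the size rule moved as follows. A 2-fold threshold gave 1 in macrophages at dpi4 (2 at 1.5-fold), 0 in monocytes on each day (1 and 2), 1 in neutrophils on each day (3 and 2), 0 in T or NK cells at dpi4 (1), and between the days in dendritic cells 1 in the control (2) and 0 in the KO libraries (1). A minimum of 200 UMIs gave 0 and 1 in macrophages at dpi2 and dpi4 (1 and 2), 1 in monocytes at dpi4, 1 in neutrophils at dpi4 and 0 in T or NK cells at dpi4. Totals without mitochondrial and ribosomal protein genes gave 1 in macrophages at dpi4. A Leiden resolution of 0.5 gave 1 there and 1 between the days in KO macrophages (0), which was *Me1*, and a resolution of 2 gave 0 in monocytes at dpi2, 1 at dpi4, and 0 between the days in KO dendritic cells. Without doublet removal the count was 0 in monocytes at dpi2, 1 in T or NK cells at dpi2 (0), which was *Pgd* and higher, and 1 between the days in KO T or NK cells (0), which was *Pgd* and lower, and at dpi4 *Idh1* took the place of *Pgd* in T or NK cells. Separate clustering gave 1 in monocytes at dpi4, 2 in dendritic cells on each day, all lower in the KO library (0), and 2 between the days in KO dendritic cells. Pooling monocytes with macrophages gave 1 between the days in each genotype (0), which was *Idh1*. A mitochondrial limit of 20% or a minimum of 200 genes gave 0 in T or NK cells at dpi4. Counting the *Il1f9* cluster as neutrophils, chosen after seeing the data, gave 1 at dpi4. The count also grew by *G6pdx* in neutrophils at dpi2, with TMM factors and with a mean of per-cell CPM. In monocytes at dpi4 it grew by *Pgd* with a mean of per-cell CPM and by *G6pdx* with 200 genes. Between the days in control dendritic cells, *Tkt* was added, lower, with either looser filter, without doublet removal and at resolution 2. Separate clustering there added *G6pdx* and *Pgd*, higher, and lost *Idh1*. Where a threshold was raised the cause is the rule itself, and otherwise the cause was not tested. Counting error limits *Me1* throughout and every gene in the classes with fewer than 50 cells.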
